A study of Rattus norvegicus with 5 samples.

Results

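Abcb1a, Abcb1b and Ephx1 are genes of drug and xenobiotic handling, and they were followed in single cells of irradiated and control rat skin. The genes were chosen by symbol, with results of the same counts already known, in which Abcb1a stood among the genes with the largest ratio to control in fibroblasts 7 days (d) after irradiation. Levels and ratios of Abcb1a and Ephx1 to the control library are therefore descriptions of values that had a part in the choice. Of the 3 symbols, 2 matched a row of the gene lists, Abcb1a (ENSRNOG00000008012) and Ephx1 (ENSRNOG00000003515), out of 30017 symbols in all. Abcb1b was not analysed here.

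Abcb1a and Abcb1b encode P-glycoproteins, pumps of the plasma membrane that use ATP to move a broad range of lipophilic compounds out of the cell. Rodents carry both genes where humans carry a single one, ABCB1, and P-glycoprotein is known from the blood-brain barrier, gut, liver, stem cells and drug-resistant tumours. Ephx1 encodes microsomal epoxide hydrolase, an enzyme of the endoplasmic reticulum that adds water to reactive epoxides, among them those formed from xenobiotics by cytochromes P450 and some formed from fatty acids. Both genes are best known from studies of drug disposition, and both have been described as inducible by stress and xenobiotics.

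The libraries came from skin of young male Sprague-Dawley rats, 1 library without irradiation (control) and 1 each from skin taken 7, 14, 28 and 60 d after irradiation (IR_7d, IR_14d, IR_28d and IR_60d). According to the study's methods the buttock skin received a single electron beam dose. No dose is given in the labels, and the text of the study covers only the control, 7, 14 and 28 d skin, so whether the 60 d library shares the dose and the experiment of the others is not known. Each group was 1 library, so groups were not tested against each other, and the effect of irradiation cannot be told apart from differences between animals, dissociations or libraries. Nor can time after irradiation be told apart from the age of these young animals when the skin was taken. All 4 irradiated libraries were set against the same control library.

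The files held between 6012 and 12239 barcodes per library, with 70073362 to 139566348 unique molecular identifiers (UMIs, 1 per captured RNA molecule) and a median of 4082 to 11650.5 UMIs per barcode. Of the barcodes kept, 79.2% to 94.3% could be assigned to a cell type by a score over fixed marker genes. Between 4.97% and 14.0% lay within 0.05 of the score at which a type was assigned, or of the required lead over other lineages. Each assigned type is thus a range of marker scores rather than a sharply bounded population. Cells with the markers of 2 lineages, 2.02% to 7.80% of those kept, were left out as possible doublets, and pairs of libraries shared only 5 to 36 barcode sequences. The number of cells assigned as fibroblast-like was 3212 in control, 6957 in IR_7d, 70 in IR_14d, 540 in IR_28d and 558 in IR_60d, and of keratinocyte-like cells 4609, 1693, 2131, 4916 and 6561. They are called fibroblasts and keratinocytes for short, and fibroblast values at 14 d rest on few cells. In fibroblast-like cells all 6 detected fibroblast markers had UMIs in every library, with a summed level of 75697 to 85565 CPM (UMIs of a gene per 1000000 UMIs of the type's cells), and the 11 keratinocyte markers summed to 1592 to 3033.

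The sequences in front of the annotated start sites of Abcb1a and Ephx1 are shown first. They are the 250 bases upstream of each start in RefSeq on the rat build GRCr8, which is not the build of the counts (Rnor_6.0), written 5′ to 3′ on the strand of the gene. Capitals mark matches, on either strand, to TGAGTCA (the AP-1 site), TGACNNNGC (the core of the antioxidant response element), GGGCGG (the GC box), CCAAT or CACGTG (the E-box). The p53 half-site, a pattern with open positions, was searched as well. Abcb1a lies on chr4:26397649-26397898 (minus strand), and Ephx1 has one window at chr13:95275853-95276102 and another at chr13:95263118-95263367 (both minus strand). The counts are of RNA 3′ ends and do not tell which Ephx1 start was used.
Abcb1a: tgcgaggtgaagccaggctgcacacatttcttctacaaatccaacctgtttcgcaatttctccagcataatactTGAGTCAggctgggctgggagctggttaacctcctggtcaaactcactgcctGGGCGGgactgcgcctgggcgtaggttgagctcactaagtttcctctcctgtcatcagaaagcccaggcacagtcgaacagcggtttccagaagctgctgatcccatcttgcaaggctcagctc
Ephx1, upstream start: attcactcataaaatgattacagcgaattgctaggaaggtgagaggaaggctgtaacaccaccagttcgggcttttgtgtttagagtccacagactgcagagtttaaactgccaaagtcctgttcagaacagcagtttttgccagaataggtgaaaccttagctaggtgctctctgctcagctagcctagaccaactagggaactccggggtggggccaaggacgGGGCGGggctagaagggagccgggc
Ephx1, downstream start: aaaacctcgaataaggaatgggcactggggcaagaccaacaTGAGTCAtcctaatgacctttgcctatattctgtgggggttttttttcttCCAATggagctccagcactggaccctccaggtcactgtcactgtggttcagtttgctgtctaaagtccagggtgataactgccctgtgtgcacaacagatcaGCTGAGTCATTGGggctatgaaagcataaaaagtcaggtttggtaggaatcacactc

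The Abcb1a window held 1 AP-1 site, 176 bases before the start, and 1 GC box, 124 bases before it. The upstream Ephx1 window held a single GC box, 25 bases before the start. The downstream Ephx1 window held AP-1 sites 209 and 55 bases before the start, an antioxidant response element core at 57 that overlaps the second of them, and CCAAT boxes at 159 and 49. No E-box and no p53 half-site was matched in these 3 windows, which says only that these letters are not in them. Of 33469 rat promoter windows of the same length, 4.05% held TGAGTCA, 10.1% TGACNNNGC, 30.5% GGGCGG, 34.0% CCAAT, 5.59% CACGTG and 6.64% the p53 half-site. GC content was 54.0% for Abcb1a and 51.6% and 47.2% for the upstream and downstream Ephx1 windows, beside a median of 51.2%.

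In fibroblasts, the collagen-producing cells of the dermis, Abcb1a was scarce in control skin and far more abundant in all 4 irradiated libraries. Its level was 3.76 CPM in control (95% counting interval 3.16 to 4.44, 139 UMIs), beside 138 in IR_7d (136 to 141, 9090 UMIs), 113 in IR_14d (86.9 to 145, 62 UMIs), 70.2 in IR_28d (61.1 to 80.3, 215 UMIs) and 47.3 in IR_60d (41.2 to 54.0, 220 UMIs). These intervals, exact Poisson for a sum of counts, cover counting error only, as do all others here. No irradiated interval overlapped that of control. The ratio to control was 36.8-fold in IR_7d (31.1 to 43.8), 30.1-fold in IR_14d (22.0 to 40.9), 18.7-fold in IR_28d (15.0 to 23.3) and 12.6-fold in IR_60d (10.1 to 15.7). Among the irradiated libraries the 7 d and 14 d levels differed by less than counting error (log2 ratio of 14 d to 7 d -0.29, interval -0.67 to 0.07), whereas 28 d was below 7 d (-0.98, -1.18 to -0.78) and 60 d below 28 d (-0.57, -0.85 to -0.29).

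Ephx1 was also higher in irradiated fibroblasts, from a higher base and by less. It stood at 11.4 CPM in control (10.3 to 12.5, 420 UMIs), 73.3 in IR_7d (71.3 to 75.4, 4815 UMIs), 47.5 in IR_14d (31.0 to 69.6, 26 UMIs), 40.8 in IR_28d (34.0 to 48.6, 125 UMIs) and 58.0 in IR_60d (51.3 to 65.4, 270 UMIs). All 4 irradiated levels lay above control beyond counting error, 6.45-fold in IR_7d (5.84 to 7.15), 4.18-fold in IR_14d (2.70 to 6.21), 3.59-fold in IR_28d (2.92 to 4.40) and 5.11-fold in IR_60d (4.37 to 5.96). Unlike Abcb1a, Ephx1 did not follow a falling order after 7 d, since the 60 d level was above the 28 d level (log2 ratio 0.51, 0.20 to 0.82).

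Both genes passed a 2-fold difference to control in all 4 irradiated fibroblast samples. Of all genes with at least 50 UMIs in the pair of libraries, the share at least 2-fold higher in fibroblasts was 6.75% of 12403 genes in IR_7d, 14.9% in IR_14d, 11.2% in IR_28d and 12.3% in IR_60d. Since the ratios had a part in choosing the genes, nothing is read from their passing. By size of ratio, 8 of 12403 genes stood above Abcb1a in IR_7d, 7 of 10508 in IR_14d, 18 of 10707 in IR_28d and 3 of 10791 in IR_60d. For Ephx1 the numbers of genes above it were 89, 207, 241 and 66.

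**Figure D1:**
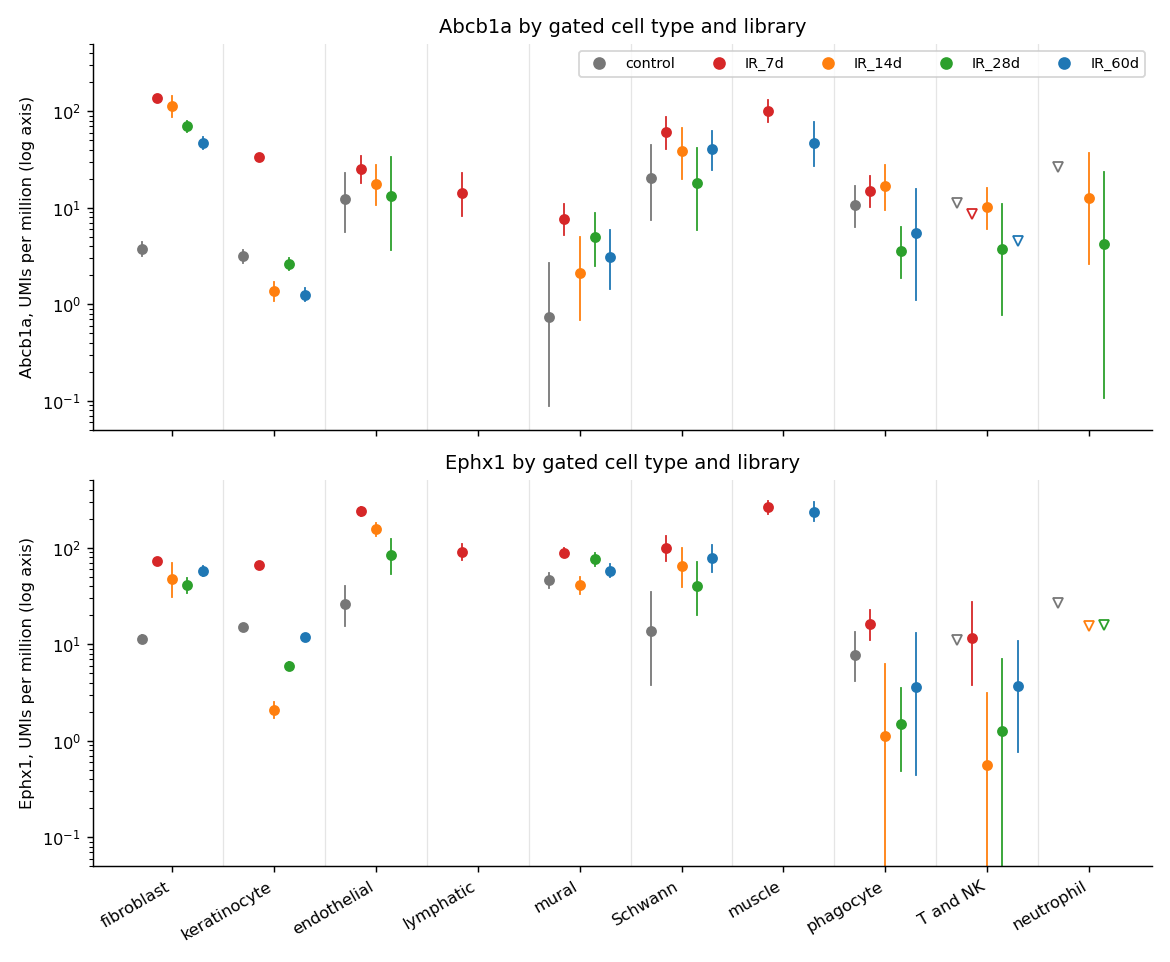
Levels of Abcb1a (top) and Ephx1 (bottom) in CPM on a log axis, by assigned cell type and library, for types with at least 50 cells. Points are sums over cells, bars are exact 95% Poisson counting intervals, and open triangles mark the upper bound where no UMI was counted. Abcb1a is highest in fibroblasts at 7 d (138), and Ephx1 in skeletal muscle-like (262) and endothelial-like (239) cells at 7 d.

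In keratinocytes, the epithelial cells of epidermis and hair follicle, both genes were higher than control at 7 d and lower, or near control, afterwards. Abcb1a was at 3.15 CPM in control (2.72 to 3.64, 187 UMIs), 34.0 in IR_7d (31.9 to 36.2, 950 UMIs), 1.37 in IR_14d (1.08 to 1.71, 77 UMIs), 2.65 in IR_28d (2.28 to 3.06, 185 UMIs) and 1.27 in IR_60d (1.07 to 1.48, 155 UMIs). The 7 d level was 10.8-fold that of control (9.20 to 12.7), and the only one above it. The log2 ratios at 14, 28 and 60 d were -1.21 (-1.61 to -0.82), -0.25 (-0.55 to 0.05) and -1.32 (-1.63 to -1.0). With the marker score required for a type raised from 0.35 to 0.7 these later ratios became -0.33, 0.89 and -0.38, and with every cell weighted equally the 28 d ratio became 0.67, so the direction at 28 d depends on which keratinocytes are counted and how they are weighted.

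Ephx1 in keratinocytes stood at 14.9 CPM in control (14.0 to 15.9, 885 UMIs), 66.6 in IR_7d (63.6 to 69.7, 1861 UMIs), 2.09 in IR_14d (1.73 to 2.51, 118 UMIs), 5.93 in IR_28d (5.38 to 6.53, 415 UMIs) and 12.0 in IR_60d (11.4 to 12.7, 1473 UMIs). It was thus 4.46-fold above control in IR_7d (4.11 to 4.84) and below control in IR_14d by more than at any other time (log2 ratio -2.83, -3.12 to -2.55), with levels closer to control in IR_28d (-1.33, -1.50 to -1.16) and 60 d (-0.31, -0.43 to -0.19). None of the 5 intervals overlapped another. The median log2 ratio of all genes in keratinocytes was 0.12 at 7 d and -0.47, -0.21 and -0.17 at the later times, and TMM scaling, which centres on the bulk of genes, moved the ratios by -0.12, 0.46, 0.21 and 0.22. Under TMM the Ephx1 ratios at 14 and 28 d were -2.38 and -1.12, and the 60 d ratio was -0.09.

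Of all genes tested in keratinocytes, 7.22% were at least 2-fold higher in IR_7d, 7.36% in IR_14d, 6.26% in IR_28d and 3.68% in IR_60d. Both Abcb1a and Ephx1 passed 2-fold at 7 d and neither did at 14, 28 or 60 d. In the other direction, both were at least 2-fold lower in IR_14d, Ephx1 alone in IR_28d and Abcb1a alone in IR_60d. For Abcb1a this depended on the processing, as 6 of 10 alternative values at 14 d and 8 of 10 at 60 d stayed past 2-fold. For Ephx1 all 10 did at 14 d and at 28 d. Of all genes, 5.72%, 32.1%, 16.4% and 16.0% were at least 2-fold lower in keratinocytes in order of time, and in fibroblasts, where neither gene was, 2.14%, 10.4%, 6.97% and 7.96%. At 7 d, 51 of 12074 genes stood above Abcb1a and 149 above Ephx1. At 14 d, 92.9% of 12173 genes had a higher ratio than Ephx1 and 73.8% a higher ratio than Abcb1a.

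**Figure D2:**
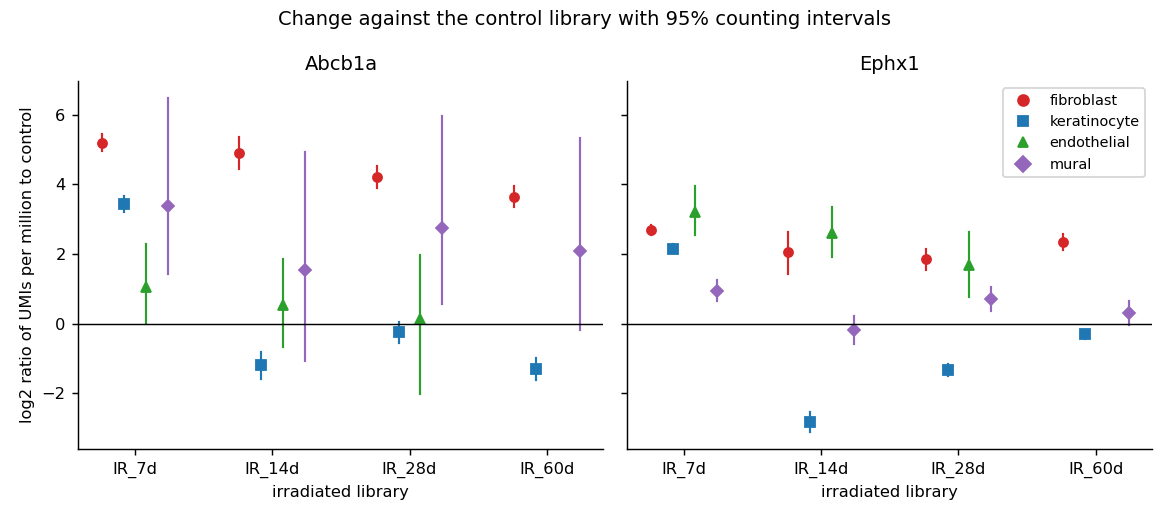
Log2 ratio of CPM in each irradiated library to the control library for Abcb1a (left) and Ephx1 (right) in fibroblast-, keratinocyte-, endothelial- and mural-like cells, with exact 95% counting intervals. Fibroblast points stay above 0 in all 4 libraries for both genes, whereas keratinocyte points are above 0 only at 7 d. Endothelial-like cells at 60 d (34 cells) are left out.

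Within each library the balance between the 2 cell types differed. In control, Abcb1a in fibroblasts was 1.19-fold that of keratinocytes (0.95 to 1.49), an interval that includes equality. The fold was 4.07 in IR_7d (3.81 to 4.36), 82.9 in IR_14d (58.3 to 117), 26.5 in IR_28d (21.7 to 32.5) and 37.4 in IR_60d (30.3 to 46.2). For Ephx1, fibroblasts were below keratinocytes in control (0.761-fold, 0.676 to 0.856) and close to them at 7 d (1.10-fold, 1.04 to 1.16). At the later times the fold was 22.7 (14.2 to 34.9), 6.88 (5.59 to 8.42) and 4.82 (4.22 to 5.50).

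Free RNA from lysed cells is counted in every droplet, so each level was set beside the level of fibroblast markers carried by the same cells. At 7 d, keratinocytes held the summed fibroblast markers at 2.03% of their level in fibroblasts, Abcb1a at 24.5% and Ephx1 at 90.8%. In mural-like cells at 7 d, by contrast, Abcb1a stood at 5.58% of its fibroblast level beside 5.19% for the fibroblast markers. T and NK-like lymphocytes at 7 d carried those markers at 3.30%, had no Abcb1a UMI in 78 cells and had Ephx1 at 15.8% of its fibroblast level from 5 UMIs. The part of free RNA in the ratios to control was not tested.

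Endothelial cells line the blood vessels, and those of brain capillaries are a classical site of P-glycoprotein. Endothelial-like cells of the skin (94 in control, 137 in IR_7d, 182 in IR_14d, 53 in IR_28d) had 12.2 CPM of Abcb1a in control (5.60 to 23.3), 25.6 in IR_7d (18.3 to 34.9), 17.8 in IR_14d (10.7 to 27.7) and 13.3 in IR_28d (3.62 to 34.1). These rest on 9, 40, 19 and 4 UMIs, and every ratio to control had an interval that included 0 on the log2 scale, with 1.06 (-0.0029 to 2.29) at 7 d. Set against these cells, fibroblasts had less Abcb1a in control (0.307-fold, 0.157 to 0.686) and more at 7 d (5.41-fold, 3.97 to 7.58).

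Ephx1 in the same endothelial-like cells was among the highest levels of the series. It stood at 25.9 CPM in control (15.6 to 40.4, 19 UMIs), 239 in IR_7d (216 to 265, 374 UMIs), 156 in IR_14d (133 to 182, 167 UMIs) and 83.1 in IR_28d (53.8 to 123, 25 UMIs). No irradiated interval overlapped that of control, and the ratios were 9.25-fold (5.84 to 15.5), 6.03-fold (3.74 to 10.3) and 3.22-fold (1.70 to 6.18). At 7 d, 12 of 4708 genes tested in these cells had a larger ratio than Ephx1, and 32 of 4106 at 14 d. In every library with at least 50 endothelial-like cells, fibroblasts had less Ephx1 than these cells, at 0.439-, 0.306-, 0.305- and 0.491-fold in control, 7, 14 and 28 d. Lymphatic endothelial-like cells reached 50 cells only at 7 d, with 91.1 CPM of Ephx1 (74.2 to 111) and 14.3 of Abcb1a (8.16 to 23.2).

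Mural-like cells, the pericytes and smooth muscle around vessels, had the highest Ephx1 level in control among the types with at least 50 control cells, which leaves out skeletal muscle-like and lymphatic endothelial-like cells. Their Ephx1 level was 46.5 CPM in control (38.7 to 55.3), 88.8 in IR_7d (80.0 to 98.4), 40.6 in IR_14d (32.9 to 49.7), 75.9 in IR_28d (64.8 to 88.3) and 57.8 in IR_60d (49.3 to 67.2). The log2 ratio to control was 0.93 in IR_7d (0.64 to 1.24) and 0.71 in IR_28d (0.37 to 1.05), with intervals that included 0 in IR_14d (-0.19, -0.59 to 0.20) and 60 d (0.31, -0.03 to 0.66). Abcb1a in mural-like cells was at 0.737, 7.72, 2.14, 4.97 and 3.13 CPM from control to 60 d, from 2, 32, 5, 11 and 9 UMIs, so its ratios have wide intervals (log2 ratio at 7 d 3.39, 1.42 to 6.49).

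Schwann-like cells, the glia of peripheral nerves, held both genes. Ephx1 was at 13.7 CPM in control (4 UMIs), 100 in IR_7d (46 UMIs), 64.7 in IR_14d, 39.8 in IR_28d and 78.7 in IR_60d, with ratios to control of 7.30-fold in IR_7d (2.67 to 27.9), 4.71-fold in IR_14d (1.58 to 18.9) and 5.73-fold in IR_60d (2.07 to 22.1), and an interval that included equality in IR_28d. Abcb1a was at 20.6, 61.0, 38.8, 18.1 and 40.4 CPM in the same order (6, 28, 12, 5 and 20 UMIs), and only the 7 d ratio, 2.96-fold (1.2 to 8.75), had an interval above equality. Of the 20 Abcb1a UMIs at 60 d, 14 were counted in a single cell.

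Skeletal muscle-like cells, chosen by markers of myogenic progenitors, reached 50 cells only at 7 d (138 cells) and 60 d (58 cells), so they had no control level. Their Ephx1 level, 262 CPM in IR_7d (223 to 307) and 237 in IR_60d (188 to 295), headed the order of all 40 levels together with that of endothelial-like cells in IR_7d. Their Abcb1a level was 102 CPM in IR_7d (77.5 to 131) and 47.3 in IR_60d (27.1 to 76.9), close to that of fibroblasts in IR_60d (0.999-fold, 0.601 to 1.78).

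Leukocytes gave few UMIs of either gene, at most 33 for a type in a library. Mononuclear phagocyte-like cells had 10.7, 15.1, 16.9, 3.60 and 5.44 CPM of Abcb1a from control to 60 d, from 18, 31, 15, 12 and 3 UMIs, and 7.75, 16.1, 1.13, 1.5 and 3.63 CPM of Ephx1, from 13, 33, 1, 5 and 2. In control their Abcb1a interval (6.36 to 17.0) lay above those of fibroblasts and keratinocytes. T and NK-like cells had no Abcb1a UMI in control, in IR_7d or in IR_60d, with upper bounds of 11.1, 8.58 and 4.57 CPM. They had 18 UMIs (10.2 CPM, 6.04 to 16.1) in IR_14d and 3 UMIs (3.74 CPM, 0.772 to 10.9) in IR_28d. The IR_14d interval overlapped the bounds of control and IR_7d and the interval of IR_28d, but not the bound of IR_60d. In IR_14d these cells carried fibroblast markers at 0.0220% of the fibroblast level. Neutrophil-like cells had no Ephx1 UMI in the 3 libraries with at least 50 of them (77, 141 and 200 cells). By a limit of 3 counts these zeros allow a share of cells with a UMI of up to 3.90%, 2.13% and 1.5%, in cells with a median of 1066.5 to 1758 UMIs, and set no limit on cells that express the gene.

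In the order of the 40 levels of each gene, few neighbours differed beyond counting error. For Abcb1a the first 3 places were fibroblasts in IR_7d, fibroblasts in IR_14d and skeletal muscle-like cells in IR_7d, and only the step below the third exceeded its interval. For Ephx1 the first 4 places were skeletal muscle-like cells in IR_7d, endothelial-like cells in IR_7d, skeletal muscle-like cells in IR_60d and endothelial-like cells in IR_14d. The steps that exceeded their interval were those below the third and the fourth of these and that between fibroblasts and keratinocytes at 7 d.

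Depth per cell differed between libraries, so shares of cells with a UMI were taken at 1000 UMIs drawn from each cell, leaving out shallower cells (176, 382, 4, 15 and 41 fibroblasts from control to 60 d, and 34, 27, 87, 167 and 38 keratinocytes). For Abcb1a in fibroblasts it was 0.395% of 3036 cells in control (exact Clopper-Pearson interval 0.204 to 0.689), 13.6% of 6575 in IR_7d (12.8 to 14.5), 7.58% of 66 in IR_14d (2.51 to 16.8), 8.19% of 525 in IR_28d (5.99 to 10.9) and 5.42% of 517 in IR_60d (3.63 to 7.73). Every irradiated share was above that of control. At full depth, a median of 12045, 9044, 6956.5, 4537.5 and 7454 UMIs per cell, they were 2.77%, 49.4%, 40.0%, 25.4% and 20.1%. T and NK-like cells at 7 d, with a median of 5175.5 UMIs, had 0 of 78 cells with an Abcb1a UMI, which by the limit of 3 counts allows a share with a UMI of up to 3.85%. In control the same type, with a median of 4610.5 UMIs, had 0 of 68 cells with either gene, which allows up to 4.41%. The control shares of Abcb1a and the thinned control shares of Ephx1 in fibroblasts and keratinocytes lay below that limit. They could therefore not be set apart from background by this measure.

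For Ephx1 the thinned share in fibroblasts was 1.22% in control (0.859 to 1.68), 6.37% in IR_7d (5.79 to 6.99), 6.06% in IR_14d (1.68 to 14.8), 3.05% in IR_28d (1.75 to 4.90) and 3.87% in IR_60d (2.38 to 5.91). The 14 d interval, from 4 of 66 cells, met the upper end of the control interval. In keratinocytes it was 1.77% (1.41 to 2.20), 7.62% (6.39 to 9.0), 0.147% (0.0303 to 0.428), 0.779% (0.549 to 1.07) and 1.41% (1.14 to 1.73) in the same order. At full depth the shares were 11.6%, 37.8%, 24.3%, 17.4% and 29.0% in fibroblasts and 15.3%, 52.2%, 4.22%, 6.67% and 16.4% in keratinocytes. In endothelial-like cells the thinned share was 3.45% (0.717 to 9.75) in control and 18.5% (12.4 to 26.1) at 7 d. T and NK-like cells at 7 d had 2.56% (0.312 to 8.96) from 2 of 78 cells, an interval that includes the fibroblast share. Abcb1a in thinned keratinocytes was at 0.240% in control, 3.30% at 7 d (2.5 to 4.28) and 0 of 2044 cells at 14 d.

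At 7 d the UMIs of both genes were spread over many fibroblasts. The 10% of fibroblasts with the most Abcb1a UMIs held 48.9% of them, with a highest count of 21 in a cell, and for Ephx1 the share was 50.4% with a highest count of 16. In control, where UMIs were few, the same 10% of cells held 100% of Abcb1a and 87.9% of Ephx1 UMIs.

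Of 30 other ABC transporters with enough UMIs in fibroblasts at 7 d, none was at least 2-fold higher or lower than control, beside 6.75% of all genes higher and 2.14% lower, so that few of 30 would pass at the share of all genes. Their median log2 ratio was 0.07, beside 0.14 for all genes. Abca8a, an abundant transporter of fibroblasts, was at 303 CPM against 357 in control (log2 ratio -0.24), Abca1, the cholesterol exporter, at 55.2 against 57.9 (-0.07), and Abcf1, a member that lacks membrane spans and acts in translation, at 58.4 against 62.4 (-0.09). Of the 4 other multidrug efflux pumps measured none passed 2-fold, among them Abcc1 (1.51 against 1.52 CPM), Abcc4 (1.10 against 0.947) and Abcc5, which exports cyclic nucleotides (12.1 against 9.52, 0.34). So small a count says little at the shares of all genes. At 14 d in fibroblasts 1 of 2 such pumps was at least 2-fold higher, beside 14.9% of all genes. Keratinocytes had 1 of 3 higher at 7 d and 1 of 3 at 14 d, beside 7.22% and 7.36% of all genes. No such pump was 2-fold lower in either type. Of all genes 2.14% to 10.4% were lower in fibroblasts and 5.72% to 32.1% in keratinocytes, and with so few pumps a count of none says little. At 14, 28 and 60 d, 3, 2 and 1 of 26, 27 and 27 other ABC transporters were at least 2-fold higher and 3, 1 and 2 lower, beside 14.9%, 11.2% and 12.3% of all genes higher and 10.4%, 6.97% and 7.96% lower. In keratinocytes at 7 d, 3 of 29 were higher and none lower, beside 7.22% and 5.72% of all genes.

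Enzymes around Ephx1 were counted in the same way. Of 10 epoxide-forming or epoxide-using enzymes and their partners in fibroblasts at 7 d, none was 2-fold higher and 1 was lower, with a median of -0.11, beside 6.75% of all genes higher and 2.14% lower. Cyp1b1, the cytochrome P450 that turns polycyclic hydrocarbons into epoxides, was at 150 CPM in control, 99.2 in IR_7d (-0.60) and 11.6 in IR_60d (-3.69), while Cyb5a, an electron donor of cytochromes P450, was at 319 and 291 CPM in control and in IR_7d. Ephx2, the soluble epoxide hydrolase, was named after its values were seen, with 1.62 CPM in control, 1.68 in IR_7d, 9.14 in IR_14d, 7.19 in IR_28d and 4.51 in IR_60d. Of 19 enzymes of conjugation, 2 were 2-fold higher at 7 d and none lower (median 0.20), and at 60 d 7 were higher (median 0.71, all genes 0.21). The shares of all genes that were 2-fold higher were 6.75% at 7 d and 12.3% at 60 d. Mgst1, the microsomal glutathione transferase, was at 39.5 CPM in control and 90.0 in IR_7d (1.19), Sult1a1, a sulfotransferase of phenols, at 92.6 in control, 126 in IR_7d and 295 in IR_60d (1.67), and the abundant glutathione transferase Gstp1 at 131 in control and 142 in IR_7d (0.11).

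NRF2 is the regulator that acts through the antioxidant response element, and 15 of its targets were measured. At 7 d in fibroblasts 1 was 2-fold higher and 2 lower, with a median of -0.09, beside 6.75% of all genes higher and 2.14% lower. Txnrd1, the cytosolic thioredoxin reductase, was at 174 CPM against 384 in control (-1.14), and Hmox1, heme oxygenase, at 398 against 513 (-0.37). Aldh3a1, an aldehyde dehydrogenase, was at 58.7 against 22.3 (1.39). Of 21 regulators of stress and xenobiotic responses, 3 were higher and 1 lower, with a median of 0.39, beside the same shares of all genes. They included Jun, a component of AP-1 (5134 against 1437 CPM, 1.84), Egr1 (2751 against 948, 1.54) and Ahr, the receptor of aromatic hydrocarbons (40.8 against 14.8, 1.46), and Nfkb1 was lower (159 against 425, -1.42). In keratinocytes at 14 d, 11 of the 21 regulators were at least 2-fold lower and none higher, with a median of -1.23, beside 32.1% of all genes lower.

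Of 41 targets of p53, the factor activated by DNA damage, 13 were at least 2-fold higher in fibroblasts at 7 d and none lower (median 0.62). The shares of all genes were 6.75% higher and 2.14% lower. This list was chosen with earlier results of these data known, so its counts are descriptions. At 14 d the counts were 8 of 34 with 1 lower (0.37), at 28 d 9 of 35 with none lower (0.62), and for the 60 d library 10 of 36 with 2 lower (0.60). Of all genes 14.9%, 11.2% and 12.3% were higher at these times, and 10.4%, 6.97% and 7.96% lower. In keratinocytes at 7 d, 16 of 42 were higher and 1 lower (0.79), beside 7.22% and 5.72% of all genes. At 14 d, 2 of 41 were higher and 17 lower (-0.60), beside 7.36% and 32.1%. For 28 d the counts were 2 of 41 higher and 5 lower (-0.25), beside 6.26% and 16.4%. For 60 d they were 0 of 41 higher and 7 lower (-0.18), beside 3.68% and 16.0%. Mdm2, the ligase that degrades p53, was at 102 CPM in control fibroblasts and 675, 234, 373 and 154 in the irradiated ones in order of time. Cdkn1a, the cell cycle inhibitor p21, was at 174 and then 1040, 596, 610 and 280. Btg2, an inhibitor of proliferation, was at 1641 in control and 4935 at 7 d, and Gdf15, a secreted stress factor, was at 11.4 in control and 71.6 at 7 d, and Phlda3, an inhibitor of Akt, at 57.7 and then 203, 203, 174 and 172.

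Set side by side, Abcb1a, Ephx1 and these targets had different courses. In fibroblasts the log2 ratios of Mdm2 were 2.72, 1.19, 1.87 and 0.59 at 7, 14, 28 and 60 d, those of Cdkn1a 2.58, 1.77, 1.81 and 0.68, and those of Ccng1, cyclin G1, 0.62, 0.20, 0.15 and -0.04, whereas Abcb1a remained at 3.65 and Ephx1 at 2.35 at 60 d. Phlda3 was nearest to them in this respect, with 1.81, 1.81, 1.59 and 1.58. In keratinocytes Mdm2 had 1.77, -0.46, 0.05 and -0.86, and Ccng1 1.82, -0.17, 0.05 and 0.15. Eda2r, a receptor of the TNF family, was at 2.44 CPM in control and 8.48 at 7 d in fibroblasts (1.80), and at 0.186 and 3.08 in keratinocytes (4.05). All these ratios share the control library.

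**Figure D3:**
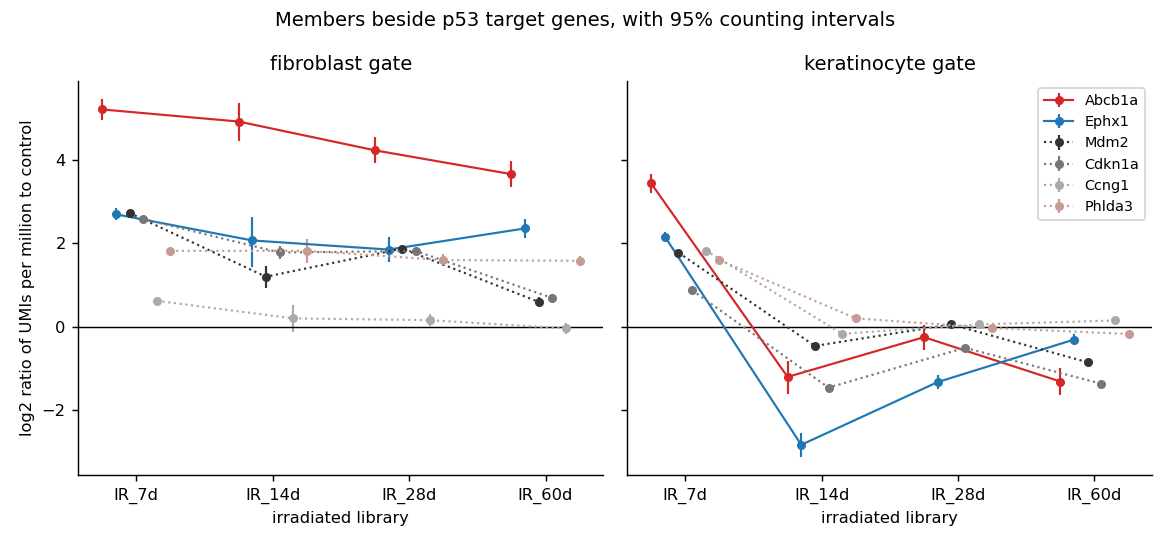
Log2 ratio to control of Abcb1a, Ephx1 and the p53 targets Mdm2, Cdkn1a, Ccng1 and Phlda3 in fibroblast-like (left) and keratinocyte-like (right) cells by irradiated library, with exact 95% counting intervals. In fibroblasts Abcb1a (5.20 to 3.65) lies above the targets drawn in all 4 libraries. Its ratio had a part in choosing it, so nothing is read from that place. In keratinocytes the genes are above 0 at 7 d, and Ephx1 is lowest at 14 d (-2.83).

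Across the 27 combinations of cell type and library with at least 100 cells, the gene whose level was most like that of Abcb1a was Mdm2. Pearson's r of log2(CPM + 10) was 0.879 among 9088 genes, followed by Rai2 (0.802), Gpc3, a cell surface proteoglycan (0.801), Trh, the thyrotropin-releasing hormone (0.784), and Chrd, the BMP antagonist chordin (0.779). Mdm2 also came first with a prior of 1 CPM (0.854) and by Spearman's rank (0.806), while the others changed place. The 27 points share 5 libraries and differ in depth, so the coefficients are descriptions. Mdm2 was highest in skeletal muscle-like cells (1060 CPM) and fibroblasts (675 CPM) at 7 d, both among the first 3 places of Abcb1a.

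Genes with levels much like those of Ephx1 were Ptk2, the focal adhesion kinase (0.891), Arhgap29, an activator of small GTPases (0.887), Cyb5r1 (0.884) and Cdc42bpb, a kinase of the cytoskeleton (0.882). Ptk2 was highest in endothelial-like cells, at 34.6 CPM in the 14 d and 27.5 CPM in the 7 d library. With a prior of 1 CPM Arhgap29 came first, and by rank Rnf215 did. Abcb1a and Ephx1 were not among each other's nearest genes, with r = 0.541, and 417 genes stood nearer to Abcb1a than Ephx1 did. Phlda3 had r = 0.808 with Ephx1 and 0.413 with Abcb1a.

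**Figure D4:**
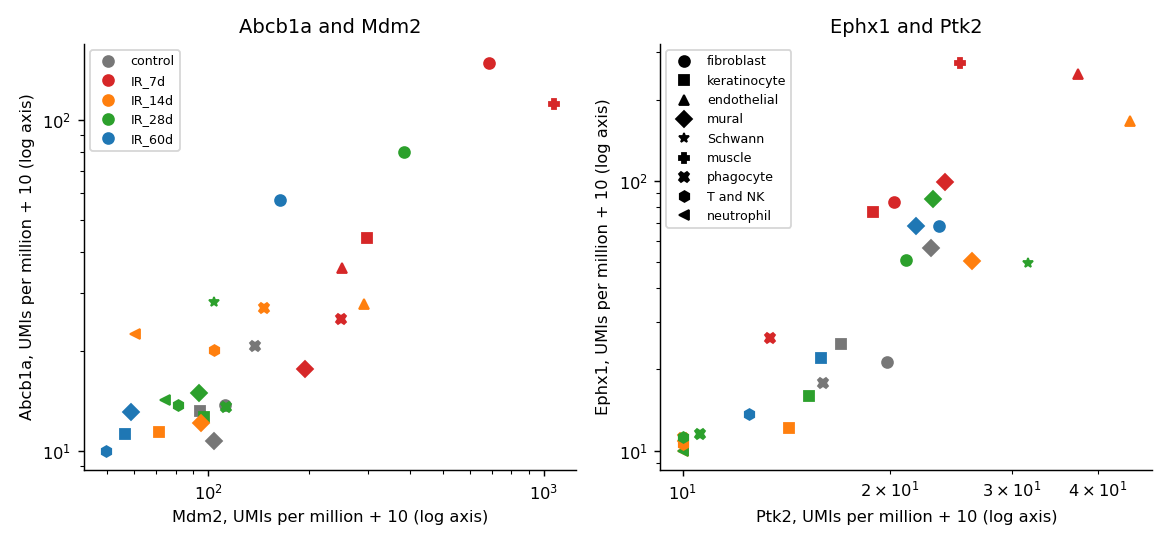
Abcb1a against Mdm2 (left) and Ephx1 against Ptk2 (right), each as CPM plus 10 on log axes, for the 27 combinations of cell type (shape) and library (colour) with at least 100 cells. Fibroblasts and skeletal muscle-like cells at 7 d are at the upper right for Abcb1a and Mdm2 (r = 0.879), and endothelial-like cells at 7 and 14 d for Ephx1 and Ptk2 (r = 0.891).

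Within the fibroblasts of the 7 d library, cells with Abcb1a held Ephx1 somewhat more often than cells without it, with intervals that overlapped. After thinning to 1000 UMIs, Ephx1 was found in 8.27% of 895 cells with Abcb1a (6.55 to 10.3) and in 6.07% of 5680 cells without it (5.47 to 6.73). Mdm2 was found in 47.8% of cells with Abcb1a (44.5 to 51.2) and 36.8% of those without (35.6 to 38.1), and Cdkn1a in 65.0% (61.8 to 68.2) and 52.6% (51.2 to 53.9). For Phlda3 the shares were 16.1% and 16.5%, and for Ccng1 17.0% and 15.5%. Of cells with and without Ephx1, 40.1% (35.4 to 45) and 38.2% (37.0 to 39.4) held Mdm2. In keratinocytes at 7 d the order for Ephx1 was the opposite, 3.64% of 55 cells with Abcb1a (0.443 to 12.5) and 7.76% of 1611 without it (6.50 to 9.18), again with intervals that overlapped. These cells come from 1 library and the intervals describe its cells only.

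Both genes were above control at 7 d in all 12 fibroblast states that had a counterpart in control. States were taken as cells with at least 3 UMIs of a state gene, and a ratio was formed where both libraries had at least 50 such cells. A cell can fall in several states, and all states are parts of the same libraries whose ratios had a part in choosing the genes. Counts of states, here and in keratinocytes, are therefore descriptions and not repeated findings. Abcb1a was above control beyond counting error in 12 of 12 states in IR_7d (log2 ratio 4.23 to 6.18), 7 of 7 in IR_28d (3.46 to 5.50) and 7 of 7 in IR_60d (3.23 to 4.84), and Ephx1 in 12 of 12 (2.10 to 2.96), 6 of 7 (0.95 to 2.13) and 7 of 7 (1.81 to 2.48). Levels still differed between states of the same library. At 7 d, cells with Apcdd1, a Wnt inhibitor of the upper dermis, had 63.6 CPM of Abcb1a (58.4 to 69.2) against 150 in the other fibroblasts, cells with Rspo3, a Wnt agonist, 56.5 against 142, cells with Cyp26b1, which degrades retinoic acid, 73.5 against 147, and cells with Edn3 50.1 against 140. Cells with Bmper, a BMP regulator, had more, 185 (168 to 202) against 137, and cells with Cxcl3, a neutrophil chemokine, 162 against 135. The Ephx1 level was 87.5 CPM in cells with Pla2g2a, a secreted phospholipase, against 67.9, and 31.8 in cells with the anion exchanger Slc26a7 against 74.7.

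In keratinocytes the states differed in Ephx1 already in control. Cells with at least 3 UMIs of Sox9, a factor of the hair follicle, had 22.8 CPM (21.0 to 24.7) and the others 8.82, while cells with Krt1, a keratin of differentiating epidermis, had 7.73 (6.85 to 8.70) and the others 25.9. At 7 d the Sox9 difference was within counting error, with 65.8 (62.2 to 69.6) against 68.1. At the later times it was again present, with 3.25 against 1.82, 10.5 against 4.23 and 22.2 against 8.10. Cells with Lhx2, another follicle factor, had 28.5 against 5.40 at 28 d, and those with Krt16, a keratin of wounded epidermis, 2.5 against 13.0 at 60 d.

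The makeup of the keratinocytes differed between libraries as well. Cells with at least 3 UMIs of Sox9 were 42.7% of keratinocytes in control, 52.6% in IR_7d, 14.1% in IR_14d, 16.6% in IR_28d and 24.2% in IR_60d. Taken within Sox9 cells and within the others, the Ephx1 ratio at 60 d was -0.03 (-0.19 to 0.12) and -0.12 (-0.32 to 0.08), both with intervals that include 0. At 14 d it was -2.81 (-3.34 to -2.32) and -2.28 (-2.65 to -1.92), and at 7 d 1.53 (1.39 to 1.68) and 2.95 (2.75 to 3.15). Over 9 states at 14 d Ephx1 was below control in 9, and over 10 states at 28 d in 6. At 60 d it went both ways, below control beyond counting error in 3 of 10 states and above it in 3 (log2 ratio -1.64 to 0.82). Keratinocytes at 14 d also carried 14990 CPM of neutrophil-list markers, which include S100a8 and S100a9 of inflamed epidermis, and the part of this in the Ephx1 ratio was not tested. Among keratinocytes at 14 d with fewer than 3 UMIs of S100a8, Ephx1 was at 4.86 CPM, against 1.83 in those with more.

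**Figure D5:**
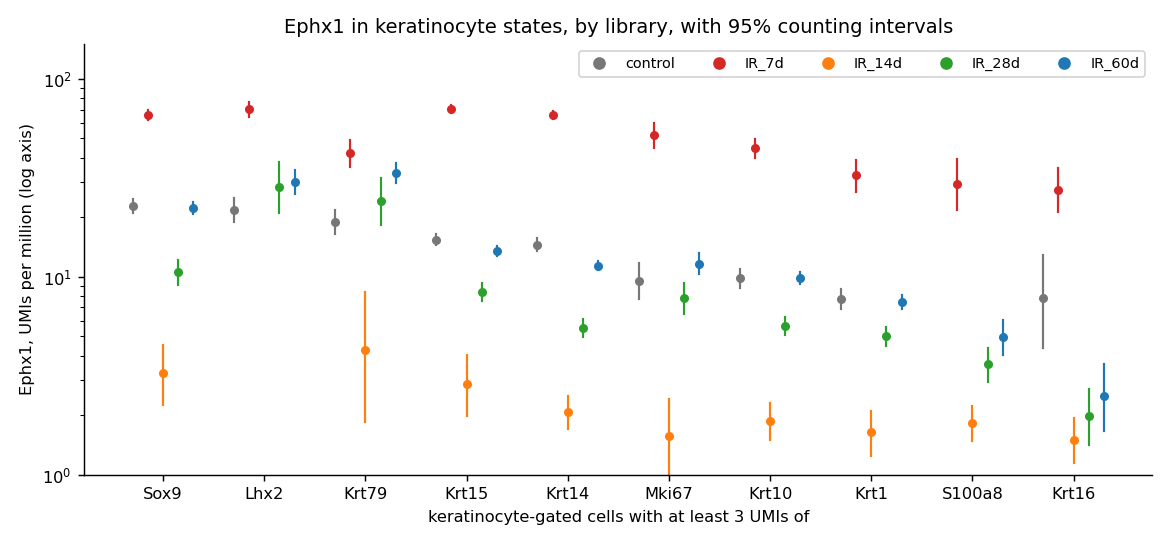
Ephx1 in CPM (log axis) in keratinocyte-like cells with at least 3 UMIs of each state gene, by library, with exact 95% Poisson counting intervals, for states with at least 50 cells. The 7 d points are the highest in each state drawn and the 14 d points the lowest in each but Lhx2, which has no 14 d point, and Sox9 cells at 60 d (22.2) are near their control level (22.8).

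Abcb1a in keratinocytes was set beside 2 markers of cycling cells. Cells with at least 3 UMIs of Mki67, a proliferation marker, had 5.49 CPM (4.13 to 7.14) against 2.68 in the others in control, 42.7 (36.4 to 49.8) against 32.6 at 7 d and 2.26 (1.68 to 2.96) against 1.04 at 60 d. Cells with Top2a, the topoisomerase of dividing cells, had 5.97 against 2.73 in control and 2.26 against 1.10 at 60 d, but at 7 d 36.8 against 33.7, within counting error (log2 ratio 0.13, -0.17 to 0.42), and at 14 d a ratio whose interval also included 0 (0.73, -0.07 to 1.47). At 7 d Abcb1a was above control in 10 of 10 keratinocyte states (log2 ratio 2.62 to 4.69), and Ephx1 in 10 of 10 (1.15 to 2.71).

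Genes next to Abcb1a and Ephx1 on the RefSeq map were also counted. Rundc3b, whose gene overlaps Abcb1a on GRCr8, had 2 UMIs in control fibroblasts and 11 at 7 d (0.0541 and 0.168 CPM), and Slc25a40 had 0.568 and 0.792 CPM. Tmem63a, beside Ephx1, was at 14.1 CPM in control fibroblasts and 24.4 at 7 d, and at 9.34 and 14.3 in keratinocytes. Of 7 genes bordering the loci measured in fibroblasts at 7 d, none was 2-fold higher or lower, and their median log2 ratio was -0.27. At the shares of all genes, 6.75% higher and 2.14% lower, a count of none among so few says little. Abundant ones among them were Srp9 (93.2 CPM at 7 d against 120 in control) and Dmtf1 (21.0 against 25.3). Abcb1a, Abcb1b and the related Abcb4 are similar in sequence, and how reads were divided among them could not be checked, which leaves the Abcb1a level uncertain to that extent.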

How the data were processed

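Skin cells of SD rats were measured in 5 libraries (control and 7, 14, 28 and 60 d after irradiation) with 10x Chromium Single Cell 3′ v3 reagents. The deposited values are raw counts of UMIs per barcode and gene, with no normalization. The submitters' processing notes name Cell Ranger 5.0.0, STAR, Seurat 3.1.1 and build Rnor_6.0. All 32623 gene rows were read, and the 2753 that share a symbol were summed to 30017 symbols.

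The genes and all lists were chosen with earlier results of these data known. Barcodes needed 500 UMIs, 300 genes and at most 20% mitochondrial UMIs. A marker score, the sum of log2(1 + UMIs per 10000) over a type's markers divided by the median of the 50 highest cells, assigned a cell to a type at 0.35 or more, with a lead of 0.15 over other lineages and at least 3 markers counted. Of 103 markers 95 were found, and of 208 list symbols 192. No doublet caller was run. Cells of 2 lineages were left out, and doublets within a type remain.

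Counts were summed per type and library with at least 50 cells and scaled to that type's total UMIs (CPM). With 1 library per group no test was made. Intervals are exact 95% Poisson, conditional binomial (ratios) or Clopper-Pearson (shares), covering counting error only, and a zero count entered a ratio as 3 counts. Ratios of all genes used those with at least 50 UMIs in both libraries together. Named genes are the members, Mdm2, Cdkn1a, Ccng1, Phlda3 and Eda2r, from each list the 3 most abundant in fibroblasts and up to 5 past 2-fold at 7 d with 20 CPM in either library, and the 5 genes most correlated with each member. Rundc3b, Slc25a40, Tmem63a, Ephx2 and the state genes shown were picked after their values were seen. Some genes under the rule are not reported here. Alternatives covered filters, gates, scaling (TMM of edgeR 4.0.16), weighting, thinning and correlation measures. Analyses ran in Python 3.11.15 with numpy 2.4.6, scipy 1.17.1 and pandas 2.3.3, and the ratio code was tested on simulated counts. Promoter sequences and neighbour names came from RefSeq (GRCr8).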

Additional observations from a re-analysis of the deposited data

Results flagged for a closer look

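At some times after 7 d, fibroblasts and keratinocytes of the same library stood on opposite sides of control, whereas at 7 d both types were above it for both genes. The log2 ratio to control in fibroblasts exceeded that in keratinocytes by 6.12 for Abcb1a at 14 d and 4.97 at 60 d, and by 4.90, 3.18 and 2.66 for Ephx1 at 14, 28 and 60 d, with counting intervals of both types off 0 on opposite sides. The keratinocyte side of Ephx1 at 60 d depended on scaling and on the cells taken. Its log2 ratio was -0.31 as reported and -0.095 under TMM, and of 10 keratinocyte states 3 were above and 3 below control beyond counting error. The difference itself was not tested, since each group is 1 library.

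Cells left without a type, which enter no comparison above, also held more of both genes at 7 d. In 1235 such cells at 7 d and 1200 in control, Abcb1a was at 63.3 and 14.4 CPM (log2 ratio 2.13, 1.86 to 2.41) and Ephx1 at 68.2 and 10.9 CPM (2.64, 2.33 to 2.96). Among them, 680 at 7 d and 374 in control had the markers of 2 lineages and may be doublets of the assigned types. These cells are therefore not a population apart from fibroblasts and keratinocytes, and the part of doublets in the ratios was not tested.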

How the results depend on the processing

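Over 16 ratios of the 2 genes in fibroblasts and keratinocytes, 142 alternative values were computed, of which 140 kept the direction and 117 lay within the counting interval of the value reported. The other 2 are the Abcb1a ratio in keratinocytes at 28 d, whose own interval included 0, at 0.89 under the stricter gate and 0.67 as a mean over cells. In other types 210 of 214 values over 32 ratios kept the direction. With the stricter gate the keratinocyte ratios of Abcb1a were 4.04, -0.33 and -0.38 at 7, 14 and 60 d, and those of Ephx1 2.46, -2.32 and -1.04 at 7, 14 and 28 d. This gate left 126 keratinocytes at 7 d and 31 fibroblasts at 14 d, too few in the second case for a value. TMM scaling gave -0.75 for Abcb1a in keratinocytes at 14 d, 2.10 for Ephx1 in fibroblasts at 60 d, and 2.03, -2.38, -1.12 and -0.095 for Ephx1 in keratinocytes, and moved fibroblast ratios by -0.11, -0.11, -0.19 and -0.25. The mean over cells gave 5.53 for Abcb1a in fibroblasts at 7 d. In a split chosen after seeing the data, keratinocytes with at least 3 UMIs of Sox9 had Ephx1 ratios of 1.53, -1.11 and -0.033 at 7, 28 and 60 d and Abcb1a ratios of -0.38 and -0.59 at 14 and 60 d, and those with fewer had Ephx1 ratios of 2.95, -2.28, -1.06 and -0.12 and an Abcb1a ratio of -1.74 at 60 d. Apart from the smaller sets of cells that these choices leave, the cause was not tested. Counting genes from 10 UMIs upward raised the share of genes at least 2-fold higher in fibroblasts to 30.6% at 14 d and 18.2% at 28 d.

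The sum of Abcb1a and Abcb1b was not run. No paired analysis was possible because each group has 1 library, and leaving out a replicate was not possible for the same reason. Among fibroblast values depth limits those at 14 d most (62 UMIs of Abcb1a and 26 of Ephx1), and shares of cells with a UMI depend on the depth they are thinned to.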
